A study of Mus musculus with 6 samples.

Results

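The 10 genes described here, *Hopx*, *Sox2*, *Nes*, *Eomes*, *Neurod1*, *Sox11*, *Dcx*, *Igfbpl1*, *Mki67*, and *Top2a*, mark adult neurogenesis and dividing cells, and they were taken by symbol from the 56941 genes of the hippocampal expression table. Expression was measured by poly(A) RNA sequencing of dissected hippocampi from 6 adult male mice of a *Hoatz* line kept on a C57BL/6J background. The comparison was between 3 wild-type and 3 *Hoatz*-/- mice, the latter lacking a gene of motile cilia and flagella and known for enlarged ventricles. The mice were littermate pairs from crosses of heterozygous parents, with 1 mouse of each genotype at postnatal day 108, 146, and 172. None was treated, and the deletion was present in all cells of the *Hoatz*-/- mice rather than only in ciliated cells. The labels rest on genotyping by the submitters, since *Hoatz* itself was listed at 0.56, 0.24, and 0.35 TPM in *Hoatz*-/- and 0.50, 0.36, and 0.13 TPM in wild-type hippocampi at postnatal days 108, 146, and 172 and could not check them.

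In the adult hippocampus, new granule neurons are made in the subgranular zone of the dentate gyrus. Radial glia-like stem cells there give rise to dividing intermediate progenitors, these become migrating neuroblasts, and the neuroblasts mature into granule neurons. *Sox2*, *Nes*, and *Hopx* are known from the stem cells, *Eomes* and *Neurod1* from the progenitors and their offspring, and *Sox11*, *Dcx*, and *Igfbpl1* from neuroblasts and immature neurons, whereas *Mki67* and *Top2a* are expressed by cells in division. None of the 10 is exclusive to these cells. *Sox2* and *Hopx* are also expressed by astrocytes, *Nes* by vessel cells, and *Neurod1* by mature granule neurons. In bulk RNA, fewer cells of a type and less RNA per cell cannot be told apart.

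All values are in TPM, a share of the transcripts of a library that is corrected for transcript length, so levels of different genes can be compared. All 10 genes reached 0.5 TPM in at least 3 of the 6 libraries, the level required for a test, which 18509 genes reached in all. *Mki67* reached it in exactly 3 libraries. Differences between genotypes are given in log2(TPM + 0.1), with the wild-type mean subtracted from the *Hoatz*-/- mean. A negative value is a lower level in *Hoatz*-/- mice, and the offset of 0.1 shrinks the differences of genes near 0. They were tested with limma, and p-values were adjusted over all 18509 genes by the Benjamini-Hochberg method, with a call at an adjusted p below 0.05. The median difference over these genes was −0.44, so a value near −0.44 is that of a typical gene. This median was 0.05 when the libraries were instead scaled to the median of gene ratios, and −0.24 when mitochondrially encoded genes were left out of the total. Mitochondrially encoded mRNA took 24.3% to 28.7% of the TPM of *Hoatz*-/- and 8.36% to 13.6% of that of wild-type libraries. The number of genes at 0.5 TPM or more ran from 16279 to 18028 in *Hoatz*-/- and from 18666 to 20606 in wild-type libraries.

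The promoters of 4 of the genes are shown, those of *Sox11* and *Sox2*, whose levels differed most between the genotypes, and those of *Mki67* and *Top2a*, the markers of division, which did not pass the test. Each is the 250 bases before the most upstream annotated start of the gene (GENCODE M39 on GRCm39), printed 5′ to 3′ on the strand of the gene. Capitals mark the CCAAT box on either strand (CCAAT or ATTGG), a promoter element known from genes of the cell cycle. The windows lie at chr12:27392574-27392823 (*Sox11*, minus strand), chr3:34704304-34704553 (*Sox2*, plus strand), chr7:135318300-135318549 (*Mki67*, minus strand), and chr11:98915063-98915312 (*Top2a*, minus strand). The *Sox2* window also holds exon bases of the genes *Gm64674* and *Gm64654*.
Sox11: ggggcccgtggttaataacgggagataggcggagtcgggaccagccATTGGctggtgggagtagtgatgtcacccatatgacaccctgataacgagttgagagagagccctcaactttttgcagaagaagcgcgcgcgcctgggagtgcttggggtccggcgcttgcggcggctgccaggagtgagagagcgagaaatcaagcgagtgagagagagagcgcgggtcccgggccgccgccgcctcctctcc
Sox2: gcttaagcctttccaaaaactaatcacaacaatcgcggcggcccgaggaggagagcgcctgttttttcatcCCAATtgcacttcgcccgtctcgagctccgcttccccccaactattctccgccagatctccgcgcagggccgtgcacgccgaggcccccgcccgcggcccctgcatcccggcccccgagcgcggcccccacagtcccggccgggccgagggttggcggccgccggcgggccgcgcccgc
Mki67: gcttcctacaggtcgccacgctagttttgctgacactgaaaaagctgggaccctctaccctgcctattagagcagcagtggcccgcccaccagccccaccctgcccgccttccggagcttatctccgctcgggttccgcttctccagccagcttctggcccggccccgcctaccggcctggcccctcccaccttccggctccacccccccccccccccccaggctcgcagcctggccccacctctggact
Top2a: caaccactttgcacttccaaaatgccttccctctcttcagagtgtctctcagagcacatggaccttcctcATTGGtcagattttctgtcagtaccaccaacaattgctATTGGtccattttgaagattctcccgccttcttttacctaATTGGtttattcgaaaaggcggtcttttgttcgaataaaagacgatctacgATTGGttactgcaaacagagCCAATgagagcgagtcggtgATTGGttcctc
The *Top2a* window held 6 CCAAT boxes, those of *Sox11* and *Sox2* 1 each, and that of *Mki67* none. A CCAAT box occurred in 36.1% of the windows of 21757 protein-coding genes. The E-box CANNTG, the sequence bound by basic helix-loop-helix factors such as NEUROD1, occurred in 66.5% of all windows, with 1 match in *Sox11* and *Sox2*, 2 in *Top2a* and *Neurod1*, and none in the other 6 genes. The cell cycle element TTTGAA, also searched on both strands, occurred in 16.9% of all windows and was present here in *Top2a* and *Dcx*. These are matches of letters in a window, and binding was not measured.

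Among the stem cell genes, *Sox2* was lower in *Hoatz*-/- hippocampi and *Hopx* was not distinguishable. *Sox2* encodes a transcription factor that maintains neural stem cells. Its level was 19.6, 19.7, and 24.3 TPM in *Hoatz*-/- and 61.7, 50.5, and 50.0 TPM in wild-type hippocampi at postnatal days 108, 146, and 172. The highest *Hoatz*-/- value was less than the lowest wild-type value by a wide margin, and the mean in *Hoatz*-/- mice was 39.2% of that in wild-type mice. The difference was −1.35 ± 0.21 (SE; 95% interval −1.82 to −0.88; adjusted p = 0.00292, limma), which is 0.90 below the median of all genes. It was −0.84 after median-of-ratios scaling (adjusted p = 0.0503) and −1.13 after rescaling without mitochondrially encoded genes (adjusted p = 0.00629). *Sox2* (chr3:34704554-34706610, plus strand) is a gene of 1 exon that lies inside the long non-coding gene *Sox2ot* on the same strand. No exon base is shared with *Sox2ot*, which was at 15.5 to 21.8 TPM in *Hoatz*-/- and 20.3 to 26.0 TPM in wild-type libraries. On the opposite strand, the long non-coding gene *Gm64654*, which has no value in the data, shares 1233 exon bases with *Sox2*.

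*Hopx*, which encodes a small homeodomain protein of quiescent stem cells and astrocytes, was the most abundant of the 10 genes. Its level was 94.5, 135, and 121 TPM in *Hoatz*-/- and 127, 153, and 114 TPM in wild-type hippocampi at postnatal days 108, 146, and 172. The genotypes overlapped, and the difference was −0.17 ± 0.21 (SE; 95% interval −0.65 to 0.30; adjusted p = 0.603, limma), which turned to 0.34 under median-of-ratios scaling. Although gene structure, described below, can affect it, the *Sox2* to *Hopx* ratio of TPM within a library does not depend on the scaling of libraries. It was 0.207, 0.146, and 0.201 in *Hoatz*-/- and 0.487, 0.330, and 0.438 in wild-type hippocampi at the same ages, without overlap. *Nes*, the gene of the intermediate filament nestin, was at 2.92, 1.55, and 1.53 TPM in *Hoatz*-/- and 4.89, 2.12, and 4.54 TPM in wild-type hippocampi at postnatal days 108, 146, and 172. It was lower in the *Hoatz*-/- mouse of every pair, yet the *Hoatz*-/- value at day 108 exceeded the wild-type value at day 146. The difference of −0.89 ± 0.44 (SE; adjusted p = 0.188, limma) was not called.

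In the progenitor group, *Neurod1* was lower in *Hoatz*-/- hippocampi and *Eomes* was close to the limit of the table. *Eomes* encodes the T-box factor TBR2, a marker of intermediate progenitors. It was at 1.47, 0.55, and 0.58 TPM in *Hoatz*-/- and 1.12, 1.12, and 0.99 TPM in wild-type hippocampi at postnatal days 108, 146, and 172. The *Hoatz*-/- mouse was the higher of its pair at day 108 and the lower at the later ages. The difference was −0.41 ± 0.48 (SE; adjusted p = 0.587, limma), about that of the median gene, and 0.04 after median-of-ratios scaling.

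*Neurod1* encodes a basic helix-loop-helix factor of late progenitors that is needed for new granule neurons to survive. Its level was 13.4, 11.0, and 8.84 TPM in *Hoatz*-/- and 28.8, 21.2, and 20.5 TPM in wild-type hippocampi at postnatal days 108, 146, and 172. The genotypes did not overlap, and the mean of the *Hoatz*-/- mice was 47.2% of the wild-type mean. The difference was −1.08 ± 0.26 (SE; 95% interval −1.66 to −0.50; adjusted p = 0.0187, limma) and −0.57 after median-of-ratios scaling (adjusted p = 0.0446). The call was lost without any 1 of 4 libraries, namely the *Hoatz*-/- mice of days 172 (adjusted p = 0.0648) and 146 (0.0760) and the wild-type mice of days 146 (0.0576) and 108 (0.122). *Neurod1* (chr2:79282865-79287294, minus strand) shares 204 exon bases with *Cerkl* on the same strand, so some of its reads could come from *Cerkl*, which was at 2.05 to 4.76 TPM in *Hoatz*-/- and 3.71 to 6.61 TPM in wild-type libraries.

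The neuroblast genes included *Sox11*, which was called under every setting tried, *Dcx*, which was called in the paired fit only among the fits of all 6 libraries, and *Igfbpl1*, which was not called. *Sox11* (chr12:27384263-27392573, minus strand, 1 exon) encodes a transcription factor that is switched on in neuroblasts and acts on *Dcx*. Its level was 4.79, 3.58, and 2.58 TPM in *Hoatz*-/- and 20.2, 12.7, and 11.4 TPM in wild-type hippocampi at postnatal days 108, 146, and 172. Within pairs, the *Hoatz*-/- mouse had 0.237, 0.283, and 0.227 of the wild-type level at these ages, and the genotypes did not overlap. The difference was −1.98 ± 0.34 (SE; 95% interval −2.74 to −1.22; adjusted p = 0.00452, limma), or 1.54 below the median of all genes, and −1.48 after median-of-ratios scaling (adjusted p = 0.00532). It was called under all 25 alternative settings, with adjusted p from 0.00173 to 0.0419.

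*Dcx* encodes doublecortin, the microtubule protein by which migrating neuroblasts are usually recognised. It was at 6.14, 2.49, and 1.98 TPM in *Hoatz*-/- and 9.26, 4.45, and 5.36 TPM in wild-type hippocampi at postnatal days 108, 146, and 172. Each *Hoatz*-/- mouse was below its littermate, with 0.663, 0.560, and 0.369 of its level, but the *Hoatz*-/- value at day 108 was higher than the wild-type values at both later ages. Across the groups the difference was −0.93 ± 0.47 (SE; 95% interval −1.98 to 0.12; adjusted p = 0.196, limma) and was not called. With the litter pair as a block, the same difference was called (adjusted p = 0.0493). It was also called without the *Hoatz*-/- mouse of day 108 (−1.41, adjusted p = 0.0159), whereas after median-of-ratios scaling it was −0.43 (adjusted p = 0.367). The *Sox11* to *Dcx* ratio was 0.780, 1.44, and 1.30 in *Hoatz*-/- and 2.18, 2.84, and 2.12 in wild-type hippocampi, so that *Sox11* was lower relative to *Dcx* in every *Hoatz*-/- mouse. The *Neurod1* to *Dcx* ratio, in contrast, overlapped between the genotypes (2.18 to 4.46 in *Hoatz*-/- and 3.11 to 4.77 in wild-type). These ratios were chosen after the values were seen and were not tested.

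*Igfbpl1*, an insulin-like growth factor binding protein gene of early neuroblasts, was at 2.56, 1.36, and 1.18 TPM in *Hoatz*-/- and 3.28, 0.95, and 2.31 TPM in wild-type hippocampi at postnatal days 108, 146, and 172. The *Hoatz*-/- mouse was above its littermate at day 146 and below it at the other ages. The difference of −0.26 ± 0.52 (SE; 95% interval −1.43 to 0.90; adjusted p = 0.763, limma) had an interval that spans both a large decrease and an increase, and its sign turned under median-of-ratios scaling (0.22).

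The markers of division were the least abundant of the 10 genes, at about 1 TPM or below in every library, and did not differ detectably. *Mki67*, which encodes the Ki-67 protein of cycling cells, was at 0.60, 0.32, and 0.24 TPM in *Hoatz*-/- and 0.88, 0.30, and 0.52 TPM in wild-type hippocampi at postnatal days 108, 146, and 172. Littermates were nearly equal at day 146, and the wild-type mouse was the higher one at the other ages. The difference was −0.43 ± 0.56 (SE; 95% interval −1.69 to 0.83; adjusted p = 0.633, limma), and −0.02 after median-of-ratios scaling. *Top2a*, which encodes the DNA topoisomerase of dividing cells, was at 0.69, 0.53, and 0.29 TPM in *Hoatz*-/- and 1.08, 0.50, and 0.26 TPM in wild-type hippocampi. Its difference was −0.13 ± 0.59 (SE; 95% interval −1.45 to 1.19; adjusted p = 0.901, limma) and 0.29 after median-of-ratios scaling, with littermates nearly equal at days 146 and 172. At these levels a difference of the size seen for *Sox2* lies inside both intervals, so equal division in the genotypes was not shown.

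**Figure D1:**
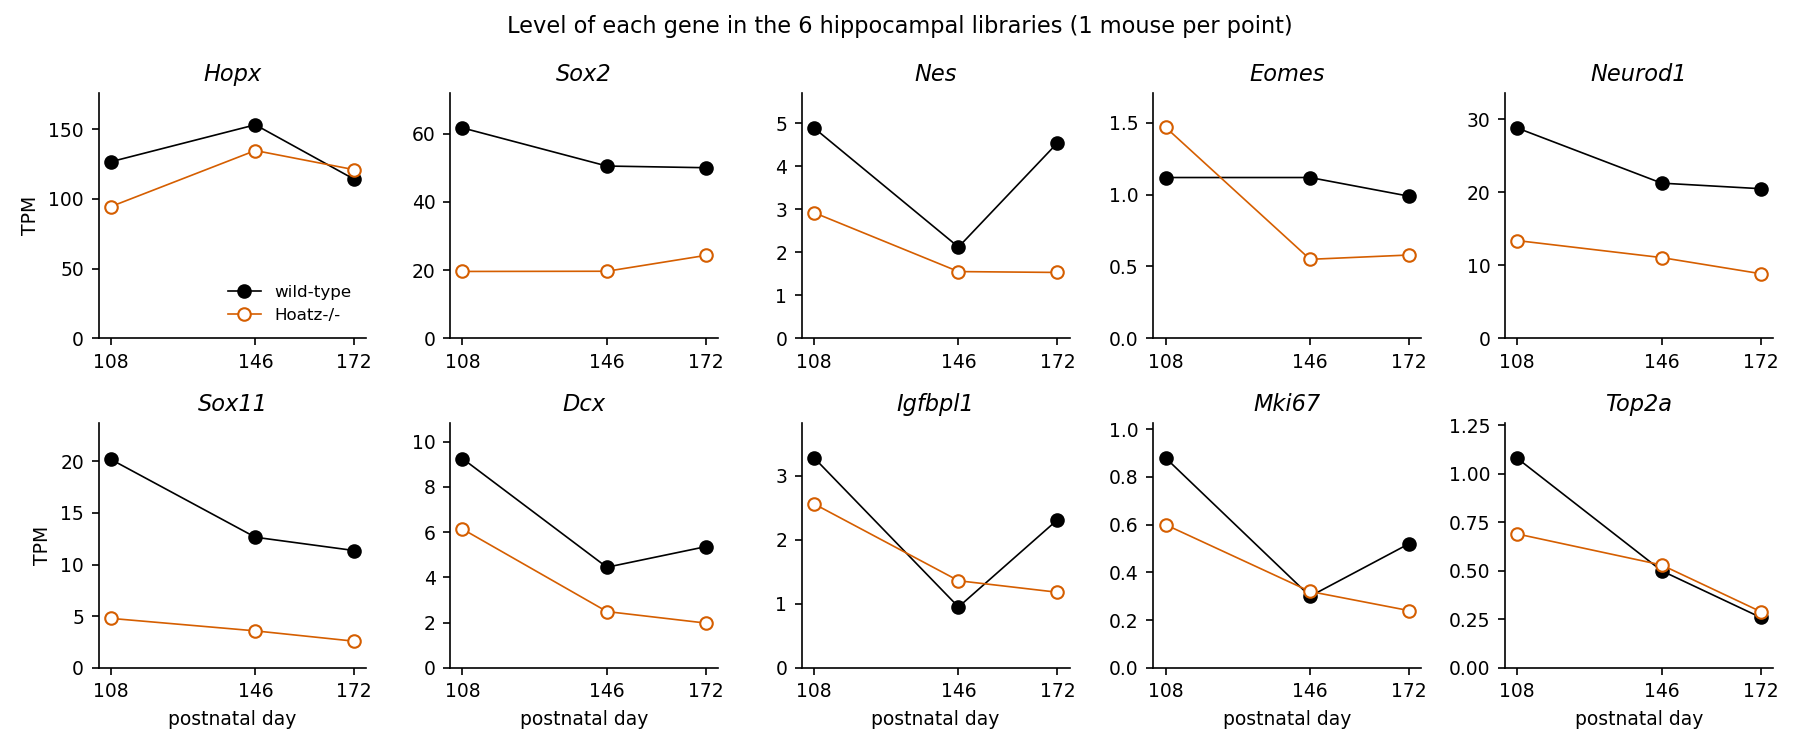
Level of each of the 10 genes in TPM (y axis, from 0, a separate scale for each gene) against postnatal day (x axis), with filled black circles for wild-type and open orange circles for *Hoatz*-/- mice, 1 mouse per point. *Sox2*, *Neurod1*, and *Sox11* are lower in all *Hoatz*-/- than in all wild-type mice, whereas the lines of *Hopx*, *Eomes*, *Igfbpl1*, *Mki67*, and *Top2a* cross or meet.

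Of the 10 genes, 3 were thus called lower in *Hoatz*-/- mice (*Sox11*, *Sox2*, and *Neurod1*) and 0 higher, where 19.6% of all genes tested were called lower and 0.924% higher. The other 7 genes did not reach an unadjusted p of 0.05 in either direction, where 31.7% of all genes were lower and 2.5% higher at that level, and limma without the trend or with robust estimation called 3 lower and 0 higher as well. None was called with a difference of −2 or less, the study's threshold of size, which 7.58% of all genes passed. *Sox11* came within 0.02 of it. The genotypes did not overlap for the same 3 genes, with *Hoatz*-/- lower, against 34.1% of all genes. Of the 10 genes, 5 (those 3, *Dcx*, and *Nes*) were lower in the *Hoatz*-/- mouse of all 3 pairs, against 51.9% of all genes. Both shares of the 10 genes are close to those of the table as a whole. With the litter pair as a block, 4 of the 10 genes were called lower (25.5% of all genes), *Dcx* being added. After median-of-ratios scaling, 2 were called (*Sox11* and *Neurod1*; 11.8% of all genes), and within nuclear protein-coding genes rescaled to a common total, 2 (*Sox11* and *Sox2*; 6.65% of all genes).

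**Figure D2:**
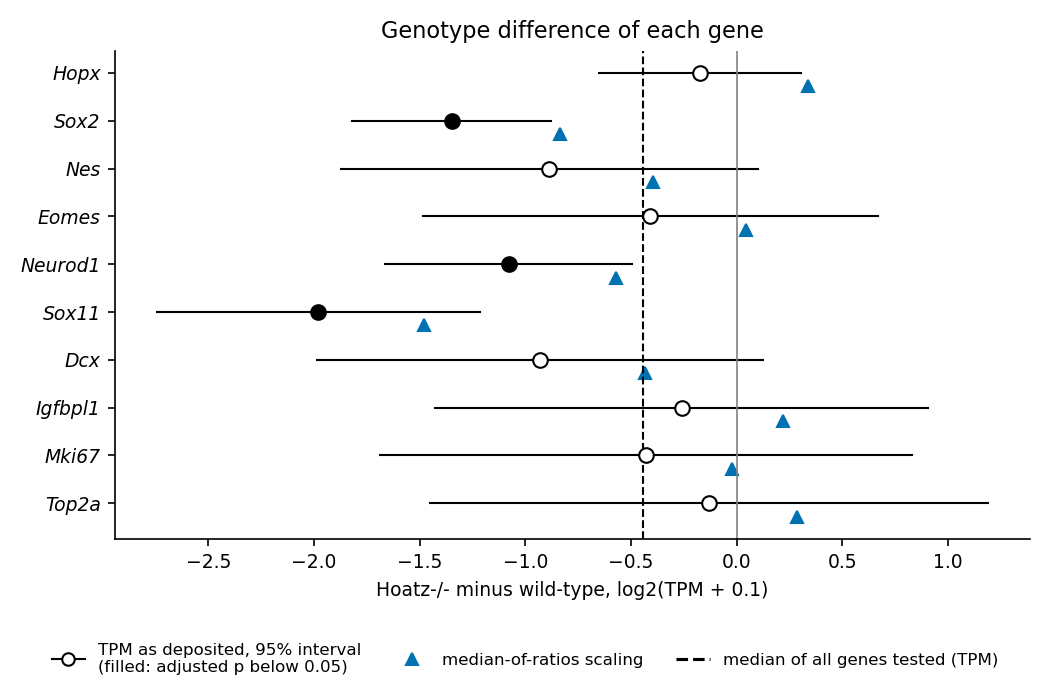
Difference between the genotypes for each gene, *Hoatz*-/- minus wild-type in log2(TPM + 0.1) (x axis), with the 95% interval as a line, filled circles for an adjusted p below 0.05, and blue triangles for the value after median-of-ratios scaling. The dashed line is the median of all genes tested (−0.44). *Sox11* (−1.98), *Sox2* (−1.35), and *Neurod1* (−1.08) lie furthest to the left of it.

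*Sox11* and *Sox2* share a gene structure that the choice of genes did not use, a single exon. The other 8 genes had 2 (*Neurod1*) to 36 (*Top2a*) exons. Over the table, non-coding genes of 1 exon had a median difference of −1.30, and 41.2% of them were called lower. Protein-coding genes of 1 exon had a median of −0.49, with 20.1% of 379 called lower, and all protein-coding genes −0.38, with 15.0% called lower. A correction for transcript length, GC content, and exon number fitted over all genes, added after the data were seen, moved *Sox11* to −0.71 (adjusted p = 0.0383), *Sox2* to −0.17 (0.629), and *Neurod1* to −0.23 (0.259), where 11.7% of all genes were called lower. Fitted within protein-coding genes, the same correction gave −1.19 (adjusted p = 0.00360), −0.79 (0.0186), and −0.63 (0.0196), all called, as were 11.3% of all protein-coding genes. The part of gene structure in these differences beyond these fits was not tested.

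With age, 7 of the 10 genes (*Nes*, *Neurod1*, *Sox11*, *Dcx*, *Igfbpl1*, *Mki67*, and *Top2a*) were highest at postnatal day 108 in both genotypes, a pattern that 43% of all genes tested showed. Each age is 1 litter, so age and litter cannot be told apart. *Sox11*, *Neurod1*, and *Top2a* were lower at each step from day 108 to 146 to 172 in both genotypes, as 12.4% of all genes did. The order of ages differed between the genotypes for *Sox2*, *Hopx*, and *Eomes*. *Sox2* was highest at day 172 in *Hoatz*-/- and at day 108 in wild-type mice. *Hopx* was highest at day 146 in both, but lowest at day 108 in *Hoatz*-/- and at day 172 in wild-type mice. *Eomes* was highest at day 108 in *Hoatz*-/- mice and equal at days 108 and 146 in wild-type mice.

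The fitted change from day 108 to 172, over both genotypes, was −1.24 ± 0.36 (SE) for *Dcx*, −1.35 ± 0.51 for *Top2a*, −0.85 ± 0.24 for *Sox11*, and −0.55 ± 0.21 for *Neurod1*, on the log2(TPM + 0.1) scale. None of the 10 genes was called for age (limma, adjusted p of 0.235 or more), nor was any of the 18509 genes (0%). At an unadjusted p below 0.05, these 4 of the 10 were lower at day 172 (*Sox11* 0.00971, *Dcx* 0.0112, *Neurod1* 0.0326, and *Top2a* 0.0338), as were 18.3% of all genes, and limma without the trend or with robust estimation gave 0 calls and 4 genes as well. The median change of all genes with age was −0.44, so *Dcx* lay 0.80 and *Top2a* 0.91 below it, and *Neurod1* 0.11. After median-of-ratios scaling, 3 of the 10 genes were highest at day 108 in both genotypes, against 16.8% of all genes. *Sox2* showed a change of −0.01 ± 0.22 and *Hopx* of 0.14 ± 0.24, both above the median of all genes. Without the wild-type mouse of day 172, 4 genes were called lower with age, namely *Dcx* (−1.66), *Igfbpl1* (−1.54), *Sox11* (−0.93), and *Neurod1* (−0.62), as were 33.1% of the 17255 genes then tested.

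**Figure D3:**
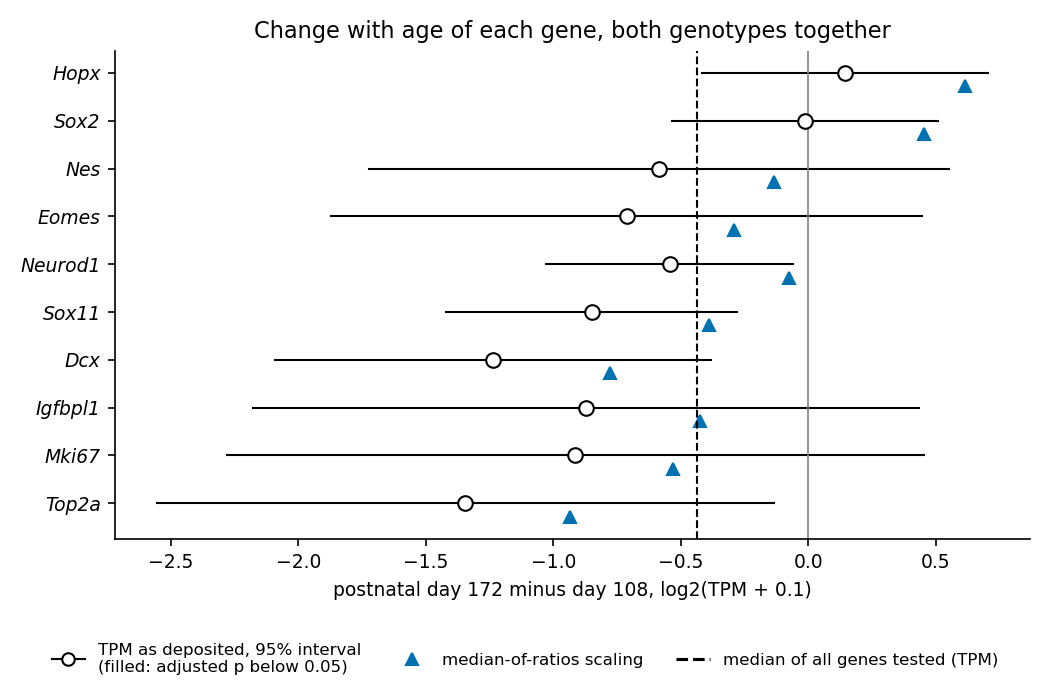
Fitted change of each gene from postnatal day 108 to day 172 over both genotypes in log2(TPM + 0.1) (x axis), with the 95% interval as a line and blue triangles for median-of-ratios scaling. The dashed line is the median change of all genes tested (−0.44). No gene was called at an adjusted p below 0.05, and the intervals of *Dcx*, *Sox11*, *Neurod1*, and *Top2a* lie below 0.

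Whether the genotype difference itself moved with age was tested by an interaction of genotype and day. No gene of the table was called (0%), none of the 10 genes reached an unadjusted p of 0.05, as 10.6% of all genes did, and both other limma settings gave the same counts for the 10 genes. The *Sox11* difference changed by −0.01 ± 0.47 (SE) on the log2 scale from day 108 to 172 (adjusted p = 0.994, limma), with an interval from −1.15 to 1.13. For *Sox2*, the difference within pairs was −1.65, −1.36, and −1.04 at days 108, 146, and 172, and for *Dcx* it was −0.58, −0.81, and −1.39. These opposite orders were not distinguishable from no interaction (*Sox2* 0.60 ± 0.35, adjusted p = 0.508, and *Dcx* −0.78 ± 0.67, adjusted p = 0.610, limma), with 3 pairs in all.

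Ordered by mean TPM over the 6 libraries, the levels were *Hopx* 124, *Sox2* 37.6, *Neurod1* 17.3, *Sox11* 9.19, *Dcx* 4.95, *Nes* 2.93, *Igfbpl1* 1.94, *Eomes* 0.97, *Top2a* 0.56, and *Mki67* 0.48. *Hopx* alone had a range that did not overlap that of the next gene. *Hopx*, *Sox2*, *Neurod1*, *Dcx*, *Nes*, and *Eomes* were above the next gene in every library, whereas *Sox11* and *Dcx*, *Igfbpl1* and *Eomes*, and *Top2a* and *Mki67* changed places between libraries. The *Mki67* to *Dcx* ratio was 0.0977, 0.129, and 0.121 in *Hoatz*-/- and 0.0950, 0.0674, and 0.0970 in wild-type hippocampi at days 108, 146, and 172. The lowest *Hoatz*-/- value (0.0977) and the highest wild-type value (0.0970) cannot be told apart, because *Mki67* was listed with only 2 decimals. The ratio was not tested.

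The genes whose profile over the 6 libraries was most like that of *Dcx*, by the root-mean-square difference of centred log2(TPM + 0.1), were *Gm5859* (0.0526), *Rbm5* (0.0550), *Tafazzin* (0.0771), and *Nrp2* (0.0826). For *Sox2*, these were *Creb3l1* (0.0663), *Gm715* (0.101), *Zkscan14* (0.104), and *Lpar4* (0.108), and for *Mki67*, *Garem1* (0.0692), *Nexmif* (0.0718), *Sufu* (0.0775), and *Dchs2* (0.0800). None of these is among the 10 genes or the neurogenesis genes listed next, and with 6 libraries many genes can share a profile.

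A wider set of 104 genes in 5 lists was examined for the steps of adult neurogenesis and its niche, and 94 of these were tested. In all, 20 were lower in *Hoatz*-/- mice and 2 higher, where 19.6% of all genes tested were lower and 0.924% higher. After median-of-ratios scaling, 14 were lower and 12 higher, against 11.8% and 8.1% of all genes. No test compared a list with the other genes. Of the radial glia-like stem cell genes, 7 of 16 were called lower and 0 higher, with a median difference of −0.42, close to that of all genes. *Sox9*, a transcription factor of neural stem cells and astrocytes, was at 9.05, 7.43, and 9.70 TPM in *Hoatz*-/- and 41.7, 32.4, and 44.5 TPM in wild-type hippocampi at days 108, 146, and 172. Its difference was −2.16 ± 0.24 (SE), with no overlap of the genotypes. *Hes1*, an effector of Notch signalling, fell by 1.69, *Pax6*, a stem cell transcription factor, fell by 1.55, and *Id4*, an inhibitor of basic helix-loop-helix factors that keeps stem cells quiescent, fell by 1.40, on the log2 scale. *Gfap*, the astrocyte filament gene, and *Slc1a3*, a glutamate transporter gene, are the most abundant genes of the list, and at −0.01 and 0.57 they were not called. Under median-of-ratios scaling, 5 of the 16 were lower and 4 higher, among them *Slc1a3* (1.08).

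Of the 10 intermediate progenitor genes, 3 were called lower and 0 higher, with a median of −0.76. *Sstr2*, a somatostatin receptor gene, and *Tead2*, a transcription factor of the Hippo pathway, both fell by 1.32. *Sstr2* was at 6.37, 5.10, and 4.43 TPM in *Hoatz*-/- and 17.4, 10.9, and 12.3 TPM in wild-type hippocampi at days 108, 146, and 172, without overlap. *Btg2*, an antiproliferative gene, was the other abundant member and was not called (−0.76). After median-of-ratios scaling, 1 of the 10 was lower and 1 higher, with a median of −0.28. Of the neuroblast and immature granule cell genes, 4 of 19 were lower and 2 higher, with a median of −0.04. *Sox4*, a close relative of *Sox11*, was at 6.18, 6.78, and 5.58 TPM in *Hoatz*-/- and 41.4, 30.7, and 25.2 TPM in wild-type hippocampi, a difference of −2.35 ± 0.26 (SE). *Neurod2* (−1.48), a relative of *Neurod1* that mature neurons also express, and *Dpysl3* (−1.44), a gene of axon growth, were lower too. *Calb2*, the calretinin gene of immature granule cells, which interneurons also express, was higher (1.07), at 27.0 to 41.4 TPM in *Hoatz*-/- and 12.6 to 20.3 TPM in wild-type libraries. The abundant microtubule regulators *Stmn1* (−0.15) and *Stmn2* (0.16) were not called. After median-of-ratios scaling, 3 of the 19 were lower and 4 higher.

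Of the cell cycle genes, 23 of 30 were tested, because *Cdk1*, *Ccnb1*, *Ccnb2*, *Cdc20*, *Cenpf*, *Aurkb*, and *Bub1* stayed below the level required. Of these, 2 were lower and 0 higher, with a median of −0.50, and 4 of the 23 were lower at an unadjusted p below 0.05, against 31.7% of all genes. *Ccnd2*, the D-type cyclin of neural progenitors, was at 43.8, 27.5, and 22.1 TPM in *Hoatz*-/- and 111, 72.1, and 94.6 TPM in wild-type hippocampi at days 108, 146, and 172, a difference of −1.61 ± 0.29 (SE). *Cenpe*, a kinetochore motor, was lower as well (−1.79) at 0.48 to 0.50 TPM in *Hoatz*-/- and 1.12 to 2.68 TPM in wild-type libraries. *Pcna*, the replication clamp and the other abundant gene of the list, was not called (−0.08). Of the niche signal genes, 4 of 26 were lower and 0 higher, with a median of −0.33. *Bdnf*, a neurotrophin made by granule neurons, was at 19.3, 17.5, and 16.4 TPM in *Hoatz*-/- and 58.9, 56.7, and 44.5 TPM in wild-type hippocampi at days 108, 146, and 172 (−1.58 ± 0.21, SE). *Bmp4* (−2.03), a signal that keeps stem cells quiescent, *Egf* (−1.83), a growth factor, and *Smo* (−0.995), the transducer of Hedgehog signals, completed the 4. *Egf* was at 0.18 to 0.62 TPM in *Hoatz*-/- and 1.12 to 1.75 TPM in wild-type libraries. Like *Cenpe*, it would have met the level required for a test from the wild-type libraries alone, and its difference rests on low *Hoatz*-/- values. *Dkk3* (0.51), an abundant secreted protein of the Dickkopf family, was not called. After median-of-ratios scaling, 3 of the 26 were lower and 3 higher.

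**Figure D4:**
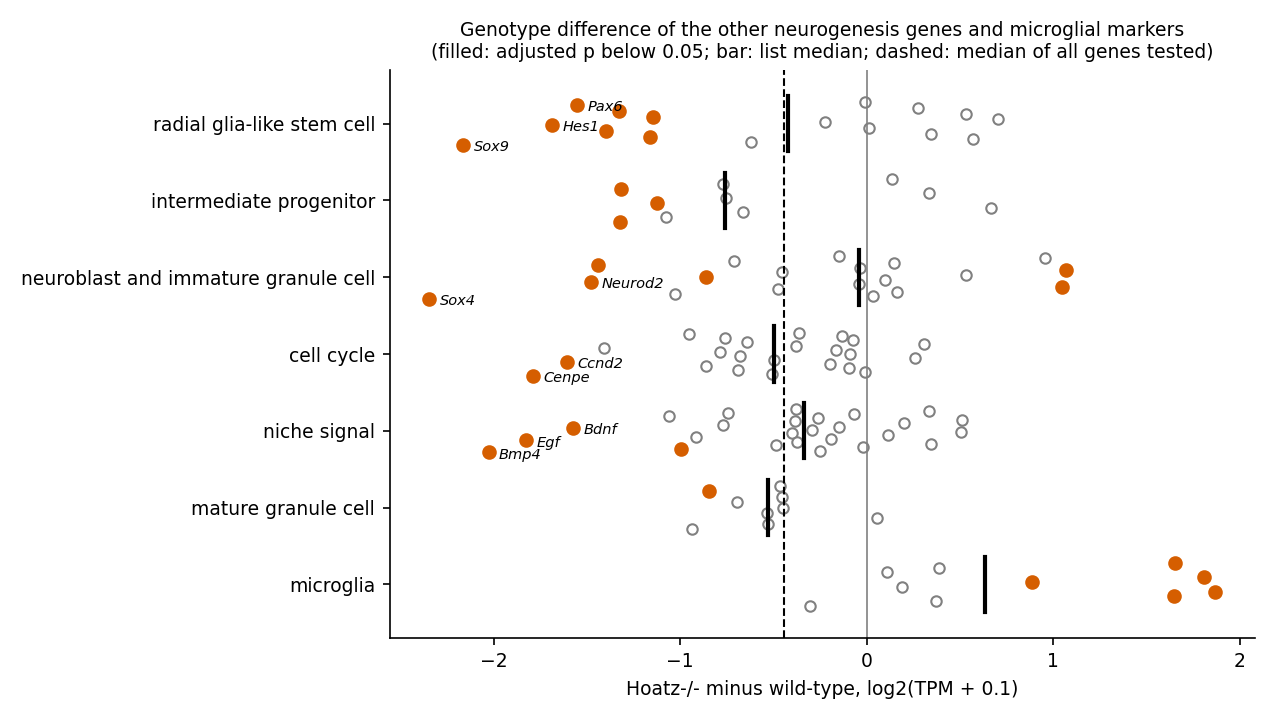
Genotype difference of each tested gene (1 point per gene) in the 5 neurogenesis lists, the mature granule cell list, and the microglial list, in log2(TPM + 0.1), with filled points for an adjusted p below 0.05 and a bar for the median of the list. The dashed line is the median of all genes tested (−0.44). *Sox4* and *Sox9* lie furthest to the left, and the called microglial genes lie to the right of 0.

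The other cells of the dissected tissue were followed by 11 marker lists, none of which had a gene at 0 in all libraries. Their counts stand against the same shares of all genes, 19.6% lower and 0.924% higher. With the litter pair as a block, these shares were 25.5% lower and 1.18% higher. In that fit, 2 of 9 mature granule cell and 3 of 9 oligodendrocyte precursor genes were lower. Of the ependymal genes, 3 of 8 were then higher, as were 1 of 7 oligodendrocyte and 1 of 6 choroid plexus genes. After median-of-ratios scaling, where the shares of all genes were 11.8% lower and 8.1% higher, 1 of 8 pyramidal cell genes was lower and 1 higher, 1 of 6 subventricular zone and 1 of 9 oligodendrocyte precursor genes were lower, and 2 of 7 oligodendrocyte, 8 of 10 microglial, and 2 of 8 ependymal genes were higher, with 0 of 6 endothelial and 0 of 6 choroid plexus genes called. Mature granule cell markers had 1 of 9 genes lower, *C1ql2* (−0.85), a granule cell synaptic protein gene, while *Calb1*, the calbindin gene, was not called (−0.46). After median-of-ratios scaling, 0 of the 9 were lower and 1 higher. The sum of their levels was 156 to 207 TPM in *Hoatz*-/- and 211 to 286 TPM in wild-type libraries. Pyramidal cell markers had 2 of 8 lower, *Zbtb20* (−2.70) and *Neurod6* (−1.02), and 1 higher, *Bok* (0.85), with a sum of 279 to 387 TPM in *Hoatz*-/- and 570 to 837 TPM in wild-type libraries. *Zbtb20*, at 27.6 to 58.6 TPM in *Hoatz*-/- and 201 to 449 TPM in wild-type libraries, and *Neurod6* carried most of that difference. The other 5 genes were not called, and the median of the list was −0.14, above that of all genes (−0.44). Markers of the subventricular zone lineage, the other neurogenic region of the adult brain, had 1 of 6 lower, *Dlx6* (−1.70), and *Dlx1* was not called (0.34). *Dlx1* stood at 28.4 TPM in the *Hoatz*-/- mouse of day 108 against 4.72 to 8.41 TPM in the other libraries, and the sum of the list was 48.8 TPM in that mouse, 15.0 and 18.2 TPM in the other *Hoatz*-/- mice, and 35.9 to 40.8 TPM in wild-type mice. The parts of the subventricular zone lineage, of other hippocampal cells, and of other tissue in these values were not tested.

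Astrocyte markers, which bear on *Sox2* and *Hopx*, had 1 of 8 genes lower, *S100b* (−0.93), and 0 higher, with 2 lower and 2 higher at an unadjusted p below 0.05, against 31.7% and 2.5% of all genes. The latter were the water channel gene *Aqp4* (0.65) and the gap junction gene *Gja1* (0.89). In the other direction, *Aldh1l1* was at 20.1 to 22.3 TPM in *Hoatz*-/- and 27.7 to 35.3 TPM in wild-type libraries. These genes were named after their values were seen. After median-of-ratios scaling the list had 0 lower and 2 higher. The list had a sum of 1130 to 1704 TPM in *Hoatz*-/- and 1234 to 1530 TPM in wild-type libraries. Their abundant genes *Aldoc* (−0.01) and *Slc1a2* (0.17) were not called. Oligodendrocyte precursor markers had 2 of 9 lower, *Cspg4* (−1.60) and *Sox10* (−1.01), and *Olig1* was not called (−0.01). Oligodendrocyte markers had 0 of 7 called, with 1 higher at an unadjusted p below 0.05 (2.5% of all genes), 2 by limma with robust estimation, and *Mbp* (−0.37) as their most abundant gene. Endothelial markers, which bear on *Nes*, had 0 of 6 called and 2 lower at an unadjusted p below 0.05, against 31.7% of all genes, with *Cldn5* at −0.72 and *Flt1* at −0.99, and limma without the trend gave 0 lower at that level. Their sum was 24.8 to 38.3 TPM in *Hoatz*-/- and 28.2 to 58.6 TPM in wild-type libraries.

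Microglial markers had 5 of 10 higher and 0 lower, among them *C1qa* (1.65), *C1qb* (1.65), *Trem2* (1.87), and *Tyrobp* (1.81), and *P2ry12*, a gene of resting microglia, was not called (0.19). The sum of the list was 362 to 382 TPM in *Hoatz*-/- and 175 to 270 TPM in wild-type libraries, without overlap, and its part in the differences of the 10 genes was not tested. Ependymal markers had 1 of 8 higher, *Tmem212* (1.49), with *Ccdc153* (0.72) and *Dynlrb2* (0.39) not called, and a sum of 74.0 to 94.2 TPM in *Hoatz*-/- and 54.1 to 68.1 TPM in wild-type libraries. Choroid plexus markers had 1 of 6 lower, *Otx2* (−1.23), and were dominated by *Ttr*, which was at 658 TPM in the *Hoatz*-/- mouse of day 172 and 8.88 to 13.7 TPM in the other 5 libraries. Without that mouse, *Sox11* was at −1.76 and *Sox2* at −1.45, both called (adjusted p = 0.00996 and 0.00453, limma), and *Neurod1* at −0.93, not called (adjusted p = 0.0648). Blood markers had 2 of 7 lower, *Hba-a1* (−2.23) and *Hba-a2* (−1.98), with a sum of 489 to 1706 TPM in *Hoatz*-/- and 2718 to 4376 TPM in wild-type libraries. Neither was called after median-of-ratios scaling (0 of 7), and 4 of 7 were lower with the litter pair as a block, against 25.5% of all genes.

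**Figure D5:**
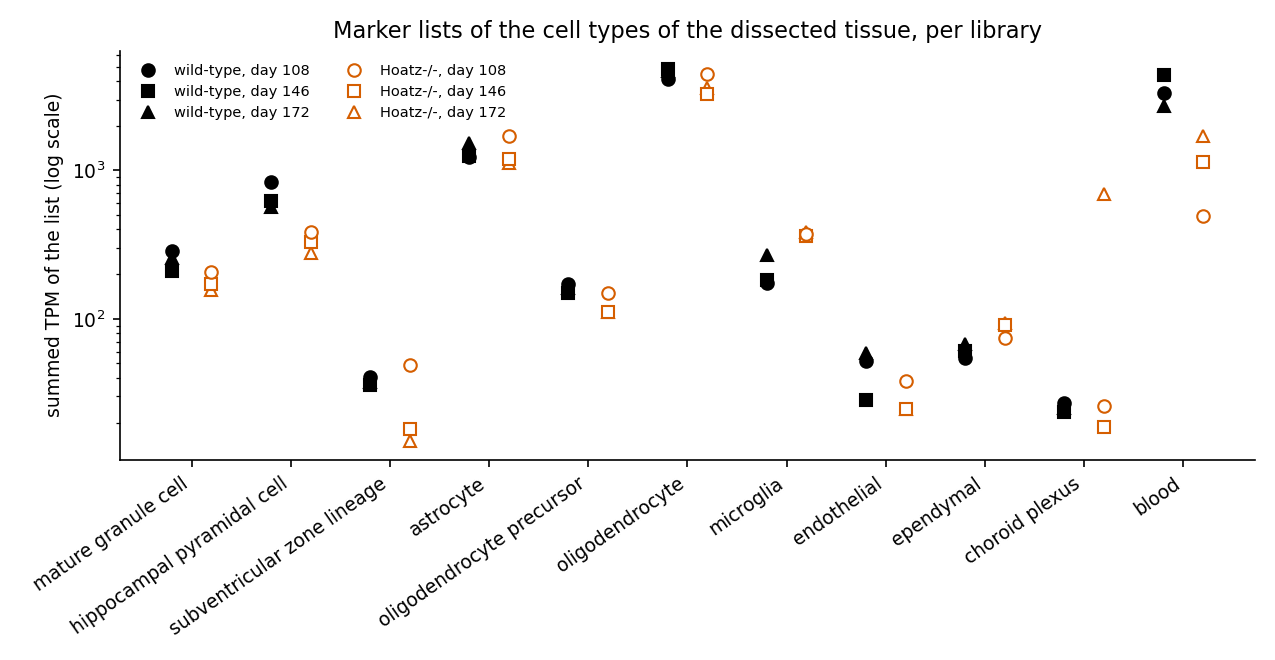
Summed TPM of each marker list (y axis, log scale) for the 11 other cell types (x axis), with 1 point per library, filled black for wild-type and open orange for *Hoatz*-/-, and circles, squares, and triangles for postnatal days 108, 146, and 172. Microglial and ependymal sums are higher and mature granule cell, pyramidal cell, and blood sums lower in all *Hoatz*-/- than in all wild-type libraries. *Zbtb20* and *Neurod6* carry most of the difference in the pyramidal cell sum.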

How the data were processed

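Poly(A) RNA from the hippocampi of 6 mice was sequenced for the authors by a service company (paired-end, strand-specific). Per the study's methods, reads were trimmed with Trimmomatic, mapped with STAR to GRCm39 without ribosomal RNA, and quantified with RSEM, and the authors deposited TPM values with 2 decimals. The submitters' processing notes name Trimmomatic 0.39, STAR 2.7.10a, and Subread 2.0.3 with featureCounts instead of RSEM, so the counter is unsure, and the annotation release is not given in the sources used here. TPM keeps no depth, so no counting interval is given and a count model was not applied in place of the count test of the study.

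Genes with 0.5 TPM in at least 3 of 6 libraries (18509) were fitted with limma 3.58.1 (R 4.3.3) on log2(TPM + 0.1) with a variance trend, and p-values were adjusted by the Benjamini-Hochberg method. The genotype model had no other term, the age model had genotype and day as a number, and the interaction model added their product. An exact permutation test of 3 against 3 mice cannot go below 0.1. Promoters, exons, and gene classes came from GENCODE M39 on GRCm39 (618 identifiers unmatched), read with python 3.11.15.

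The 10 genes and the 16 other lists were chosen with earlier results of these data known. Besides the 10, the genes named were, per list, up to 4 called genes of lowest p and the 2 of highest mean TPM, then 4 genes most like *Dcx*, *Sox2*, and *Mki67*, and *Hoatz*. Some genes that this rule names are not reported here. *Sox2ot*, *Cerkl*, and the *Sox* genes in the closing section were named after their values were seen. The study's methods describe littermate pairs, so the replicate number pairs the libraries. The correlation of deviations from the genotype means within pairs was −0.01, 0.11, and 0.18 for days 172, 146, and 108. The main fit has no block because the study's methods name none.

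The alternatives were pseudocounts of 0.01, 0.5, and 1, no filter or a mean of 1 TPM, scaling by the median of ratios or by quantiles, rescaling to a total without mitochondrially encoded genes or of nuclear protein-coding genes only, limma without the trend or with robust estimation, the pair as a block, and leaving out each library or pair. Corrections for transcript length, GC content, and exon number were added after the data were seen.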

Additional observations from a re-analysis of the deposited data

How the results depend on the processing

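The number of the 10 genes called lower between genotypes (3) was 1 to 5 when a library or pair was left out, 1 without the pair of day 146 (6.24% of all genes), 5 without the *Hoatz*-/- mouse of day 108 (41.3% of all genes), and 1 after the length, GC, and exon number correction over all genes, with or without the block (11.6% and 11.7% of all genes). It was 4 with the replicate block, which pairs littermates and added *Dcx* (adjusted p = 0.0493), and the block changed no other call of the 10 genes. The number at −2 or less (0) was 0 to 1 over the leave-outs and 1 with a pseudocount of 0.01 (*Sox11*). The number called for age (0) was 0 to 4 over the leave-outs, 4 without the wild-type mouse of day 172. *Sox11* kept its call in all 25 genotype alternatives, *Sox2* in 21, and *Neurod1* in 16. *Sox2* lost it without the pair of day 146 (adjusted p = 0.0552), and *Neurod1* without the pairs of days 172 (0.122) and 146 (0.188) and after rescaling over nuclear protein-coding genes (0.0635). *Nes* was called only without the *Hoatz*-/- mouse of day 108 (adjusted p = 0.0477) and *Dcx* also without the pair of that day (0.0316). The cause was not tested, except that leaving out libraries leaves fewer samples.

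Of the genes of the 5 neurogenesis lists, 20 were lower, and 7 to 36 over the leave-outs, with 36 without the *Hoatz*-/- mouse of day 108, 11 without that of day 146, 10 without the wild-type mouse of day 108, 9 and 7 without the pairs of days 172 and 146 (the shares of all genes being 41.3%, 10.3%, 5.81%, 7.44%, and 6.24% in that order), 13 with no filter (9.08% of all genes), and 12 after quantile normalization (10.3%) and after rescaling over nuclear protein-coding genes (6.65%). The number higher (2, with 0.924% of all genes higher) was 0 to 2 over the leave-outs (0.291% to 1.3%), 1 with no filter (0.406%) and with limma without the trend (0.481%), 4 after rescaling without mitochondrially encoded genes (1.78%), 5 over nuclear protein-coding genes (3.15%), 12 after median-of-ratios scaling (8.1%) and quantile normalization (7.88%), 12 and 14 after the correction over all genes without and with the block (11.6% and 12.2%), and 13 after that within protein-coding genes, both ways (11.0% and 12.3%). The number of the 10 genes highest at the youngest day (7) was 3 after median-of-ratios scaling and quantile normalization, where 16.8% and 17.1% of all genes were, against 43% without either.

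The sign of genotype differences that were not called turned as follows. After median-of-ratios scaling, *Eomes* was 0.0427, *Igfbpl1* 0.22, *Top2a* 0.29, and *Hopx* 0.34, and after quantile normalization 0.41, 0.48, 0.96, and 0.15, with *Mki67* at 0.61. Rescaling without mitochondrially encoded genes gave 0.0535 for *Top2a* and 0.0421 for *Hopx*, and over nuclear protein-coding genes 0.15 for *Top2a*, 0.15 for *Hopx*, and 0.0453 for *Igfbpl1*. The correction over all genes, with and without the block, gave 0.13 for *Mki67*, 0.53 for *Top2a*, and 0.21 for *Hopx*, and within protein-coding genes 0.21, 0.41, and 0.0478, with *Igfbpl1* at 0.0313. Leaving out a library or pair gave −0.74 to 0.10 for *Igfbpl1* (positive without the wild-type mouse of day 108 and without the pair of day 172) and −0.54 to 0.32 for *Top2a* (positive without the wild-type mouse of day 108 and without the *Hoatz*-/- mouse of day 172). With age, *Sox2* was 0.45, 0.39, 0.0704, and 0.0756 under the 4 scalings in the order above, and −0.23 to 0.24 over the leave-outs (positive without the wild-type mouse of day 172 or 108), and *Hopx* was −0.14 without the *Hoatz*-/- mouse of day 108. *Mki67*, *Eomes*, and *Top2a* have no value where a filter or a left-out library put them below the level required. The depth behind each TPM is unknown, which limits *Mki67*, *Top2a*, and *Eomes* most.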

Other observations

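*Sox2* and *Sox11* belong to the SOX family of transcription factors, which holds 19 genes in the table, of which 15 reached the level required for a test. This group was chosen after its values were seen, so it was not tested as a group. The *Hoatz*-/- mean was 19.1% of the wild-type mean for *Sox4*, 22.1% for *Sox9*, 24.8% for *Sox11*, 39.2% for *Sox2*, 41.5% for *Sox5*, and 49.6% for *Sox10*, and the median over the 15 genes was 64.6%. The genotypes did not overlap for the 6 genes named above and *Sox21* (68.2%), against 34.1% of all genes tested, and 12 of the 15 were lower in the *Hoatz*-/- mouse of all 3 pairs, against 51.9%. *Sox5*, a regulator of neuronal and glial differentiation, was at 13.2, 8.64, and 7.19 TPM in *Hoatz*-/- and 29.9, 21.9, and 18.1 TPM in wild-type hippocampi at postnatal days 108, 146, and 172. *Sox8* (76.1%), *Sox18* (85.9%), and *Sox3* (72.1%) were above the wild-type littermate in the *Hoatz*-/- mouse of day 108. These members mark different cells, *Sox10* the oligodendrocyte lineage, *Sox17* and *Sox18* the endothelium, and *Sox9* astrocytes and stem cells.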
